A study of Homo sapiens with 4 samples.

Results

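IGFBP5-high cells were a group of 1132 cells within the enzalutamide-resistant prostate cancer line RES-A, out of 4629 RES-A cells kept and 15452 cells kept in all 4 single-cell RNA sequencing libraries. They were chosen by their own IGFBP5 count: a cell was kept if it had at least 1500 detected genes, at least 5000 UMIs (unique molecular identifiers, which tag captured RNA molecules so that copies are counted only once) and under 20% of its UMIs from mitochondrial genes, and it was a member if it held 5 or more IGFBP5 UMIs. The 1773 RES-A cells with 0 IGFBP5 UMIs served as the comparison, and the 1724 cells with 1 to 4 UMIs lay between. Since IGFBP5 itself chose the members, its level in them is a description. At the threshold, cells with exactly 4 UMIs (233 cells) held 318 CPM of IGFBP5 (a gene's share of the UMIs of the pooled cells, scaled to 1000000). Cells with exactly 5 (158 cells) held 415 CPM, a step that the rule itself sets.

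All libraries came from LNCaP, an established androgen-sensitive line from a human prostate cancer metastasis. LNCaP DMSO was the parental line given 0.1% of the solvent DMSO for 48 h, and LNCaP ENZ48 was the same line given 10 µM enzalutamide, an antiandrogen, for 48 h. RES-A and RES-B were derived from LNCaP by long exposure to antiandrogens (enzalutamide for RES-A, the related compound RD-162 for RES-B) and were kept in 10 µM enzalutamide, with no drug-free RES-A library among those analysed here. Each group was 1 library of sorted living cells from 1 culture, so members are compared with cells of their own library, levels of different libraries are given as values of 1 library each, cells are not replicates, no significance test was made, and the 95% intervals given cover counting error only.

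IGFBP5 encodes a secreted protein that binds the insulin-like growth factors IGF1 and IGF2 outside the cell and thereby controls how much of them reaches the receptor IGF1R. The IGFBP family is further tuned by proteases such as PAPPA, which release bound growth factor, and by the stanniocalcins STC1 and STC2, which block PAPPA. In the prostate, IGFBP5 is known as a gene whose level rises when androgen is withdrawn, and the IGFBP2 gene lies beside it on the same chromosome.

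The promoters of 5 genes are shown here for the following reasons: IGFBP5 chose the members, IGFBP2 is its neighbour on the chromosome, and CDC20 and CCNB2 stand for the G2/M list and ASNS for the amino acid stress list. The sequences are RefSeq promoters on GRCh38.p14, from 250 bases before to 50 after the start site, written 5′ to 3′ along the gene. For IGFBP2, 3 promoters were listed and for ASNS 2, and the promoter nearest the annotated gene start is printed. Where shares of genes are given below, a gene counts if any of its listed promoters holds the letters. IGFBP5 lies at chr2:216695500-216695799 (minus strand), IGFBP2 at chr2:216632578-216632877 (plus), CDC20 at chr1:43358731-43359030 (plus), CCNB2 at chr15:59104896-59105195 (plus) and ASNS at chr7:97872359-97872658 (minus). Capitals mark the letters searched for on both strands: TATTTAAA in IGFBP5, GGGCGG (the GC box) in IGFBP2, TTTGAA (the cell cycle homology region) and CCAAT in CDC20 and CCNB2, and TGATGNAA (the core of the amino acid response element) in ASNS.
IGFBP5: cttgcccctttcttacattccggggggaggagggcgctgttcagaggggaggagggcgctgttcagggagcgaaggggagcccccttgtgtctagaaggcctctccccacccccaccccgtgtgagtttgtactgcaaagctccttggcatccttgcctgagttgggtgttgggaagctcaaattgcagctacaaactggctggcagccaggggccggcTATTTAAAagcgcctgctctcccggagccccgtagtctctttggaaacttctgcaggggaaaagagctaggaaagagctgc
IGFBP2: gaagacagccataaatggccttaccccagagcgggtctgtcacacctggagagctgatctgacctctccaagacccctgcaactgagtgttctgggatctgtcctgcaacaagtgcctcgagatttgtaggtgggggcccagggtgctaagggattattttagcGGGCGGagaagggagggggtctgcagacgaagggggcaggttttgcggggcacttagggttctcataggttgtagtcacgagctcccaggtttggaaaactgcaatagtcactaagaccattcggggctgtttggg
CDC20: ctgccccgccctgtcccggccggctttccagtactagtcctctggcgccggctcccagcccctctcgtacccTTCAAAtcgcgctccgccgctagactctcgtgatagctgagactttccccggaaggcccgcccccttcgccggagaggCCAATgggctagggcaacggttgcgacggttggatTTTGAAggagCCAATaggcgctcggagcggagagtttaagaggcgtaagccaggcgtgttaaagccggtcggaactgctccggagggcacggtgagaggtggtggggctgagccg
CCNB2: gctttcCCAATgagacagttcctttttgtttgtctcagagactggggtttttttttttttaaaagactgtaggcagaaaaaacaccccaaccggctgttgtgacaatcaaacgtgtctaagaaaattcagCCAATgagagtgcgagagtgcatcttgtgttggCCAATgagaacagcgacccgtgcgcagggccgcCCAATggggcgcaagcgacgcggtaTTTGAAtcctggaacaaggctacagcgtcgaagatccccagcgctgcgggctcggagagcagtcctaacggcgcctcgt
ASNS: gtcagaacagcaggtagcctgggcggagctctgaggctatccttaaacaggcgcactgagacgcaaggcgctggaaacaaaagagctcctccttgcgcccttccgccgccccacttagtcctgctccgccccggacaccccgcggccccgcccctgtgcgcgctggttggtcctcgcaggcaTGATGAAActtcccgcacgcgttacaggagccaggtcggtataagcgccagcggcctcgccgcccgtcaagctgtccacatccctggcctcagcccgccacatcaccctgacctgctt

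Of 35116 RefSeq promoters of the same length, 1.92% held TATTTAAA, 44.95% GGGCGG, 15.2% TTTGAA, 34.6% CCAAT and 3.62% TGATGNAA. No 2 of these letter patterns overlapped in the sequences printed. A match is a description of the letters and not a site in use.

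IGFBP5 RNA was found in the resistant libraries and was close to absent from the parental ones. LNCaP DMSO held 1 IGFBP5 UMI in 2019 cells and LNCaP ENZ48 held 7 in 4565 cells, while RES-A held 17604 and RES-B 6574. As levels over all kept cells, these were 0.0180 CPM in LNCaP DMSO, 0.103 CPM in LNCaP ENZ48, 300.1 CPM (interval 296 to 305) in RES-A and 114 CPM (111 to 117) in RES-B. No cell of either parental library reached 5 UMIs (exact binomial upper bounds of 0.183% of LNCaP DMSO and 0.0808% of LNCaP ENZ48 cells), against 24.5% of RES-A cells (exact binomial interval 23.2 to 25.7%) and 7.29% of RES-B cells (6.52 to 8.11%). The parental cells are the nearest to a cell type without the gene, at median depths of 26502 and 13968 UMIs against 12164 in RES-A.

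**Figure D1:**
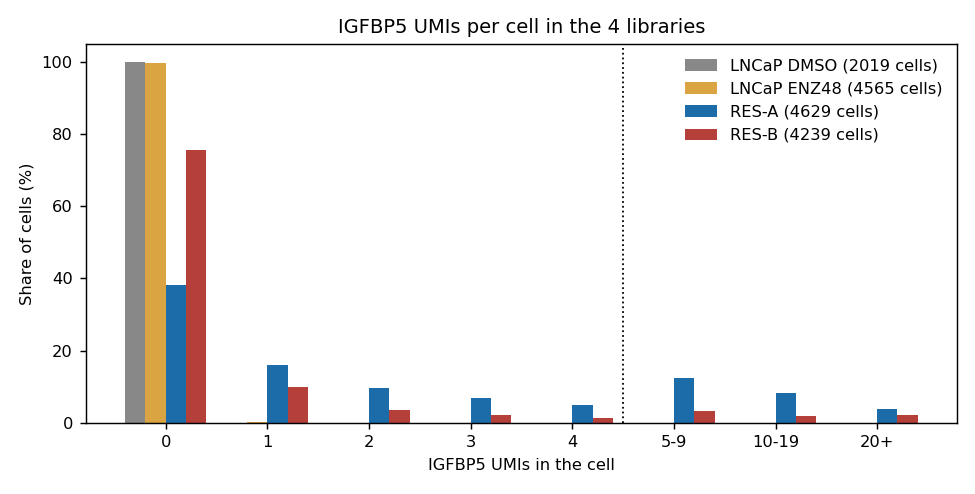
Share of cells (vertical axis, %) by the number of IGFBP5 UMIs in the cell (horizontal axis) in the 4 libraries, with a dotted line at the threshold of 5 UMIs. RES-A cells spread over every class from 0 (38.3%) to 20 or more (3.91%), while the parental libraries sit at 0.

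Within RES-A the IGFBP5 RNA was unevenly shared. Members made up 24.5% of the cells and held 80.2% of the IGFBP5 UMIs, and the 181 cells with 20 or more UMIs held 30.004% of them. Among members the count per cell had a median of 9, quartiles of 6 and 15 and a maximum of 79. With each cell thinned to 5000 UMIs, the variance of the IGFBP5 count over RES-A cells was 5.54 times its mean, rank 6 of the 1208 genes averaging 0.5 UMIs or more, where the median gene had a ratio of 1.06. At that depth 52.9% of cells held no IGFBP5 UMI, against 19.5% for a Poisson count of the same mean.

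The members did not stand apart in depth. Their median was 12077 UMIs and 3140 genes (comparison 12407 and 3233), and the median mitochondrial share was 10.5% in both groups. The share of members in the 10 depth classes of RES-A, from the shallowest to the deepest, ranged from 19.5 to 30.5% with no steady order. The IGFBP5 level, in contrast, was 528 CPM in the shallowest of these classes and 258 CPM in the deepest. Of the 1132 member barcodes, 3 also occurred as kept barcodes in another library, as did 3 of the 1773 comparison barcodes.

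The members were luminal prostate cancer cells by the markers checked. KRT18, a keratin of luminal epithelium, was at 648 CPM in members and 641 CPM in comparison cells, and KRT8 was at 222 and 209.6 CPM. The pioneer factor FOXA1 was at 104 and 92.0 CPM and the prostate homeobox factor HOXB13 at 81.4 and 95.7 CPM. KRT19 was low in both groups, at 1.72 and 1.37 CPM. The basal prostate list of 12 genes summed to 22.8 CPM in members and 23.6 CPM in comparison cells. Most of this came from ITGA6 (12.2 and 10.8 CPM) and DST (9.84 and 11.8 CPM), while KRT5 and TP63 held no UMI. Markers of cells outside the epithelium were near 0 in both groups. The 10 fibroblast markers summed to 2.27 CPM in members and 1.81 CPM in comparison cells, the 8 endothelial markers to 0.963 and 0.970 CPM, and the 12 immune markers to 0.619 and 0.529 CPM. Of these markers, COL1A2, COL3A1, DCN, PDGFRA, PECAM1, CDH5, KDR, PTPRC, CD3D and MS4A1 held no UMI in either group. Others held some, such as COL1A1 with 17 UMIs in members and 28 in comparison cells, and VWF with 6 and 13.

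The members were set against the comparison cells in 7354 genes that averaged 10 CPM or more over both groups, IGFBP5 left out. A gene was counted as higher or lower where the log2 ratio of CPM reached 0.5 in either direction. By this count 67 genes were higher (0.911% of genes tested) and 112 were lower (1.52%), and 10 genes passed a log2 ratio of 1 in either direction. All 67 higher genes and 92 of the 112 lower genes stayed on the same side of 0 under each of the alternative settings run. These settings reused the same cells and counts, and the genes were already past 0.5, so a kept side is no separate support. The median over all tested genes was -0.03, and 90% of genes lay between -0.31 and 0.25.

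**Figure D2:**
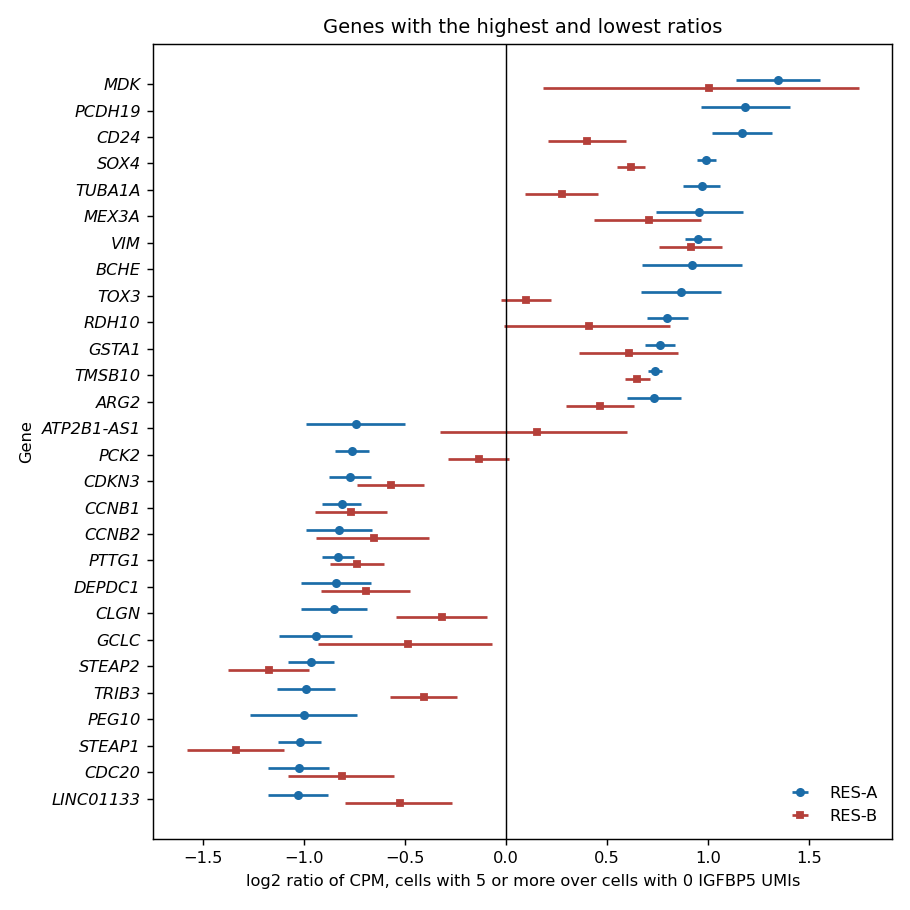
Log2 ratio of CPM between cells with 5 or more and cells with 0 IGFBP5 UMIs (horizontal axis) for 13 of the 15 highest and all 15 lowest named genes of RES-A, with the same ratio in RES-B where both RES-B groups held at least 5 UMIs. Bars are 95% counting intervals. TOX3 lies high in RES-A and near 0 in RES-B, while VIM, TMSB10, STEAP1, CCNB1 and CDC20 lie on the same side in both.

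Of the 15 highest genes, MDK, SOX4, CD24, MEX3A and TOX3 encode a growth factor, nuclear or RNA-binding regulators and a surface protein. MDK (midkine, a secreted heparin-binding growth factor) was at 34.3 CPM in members and 13.5 CPM in comparison cells, a log2 ratio of 1.35 (interval 1.14 to 1.56). SOX4, a transcription factor of progenitor cells, was at 569 and 286 CPM (0.99, 0.94 to 1.04). Its count per cell had a median of 6 with quartiles of 3 and 10.2 in members, against a median of 3 with quartiles of 1 and 5 in comparison cells, so that the distributions overlapped. CD24, a surface glycoprotein of epithelial cells, was at 61.7 and 27.5 CPM (1.17, 1.02 to 1.32). MEX3A, an RNA-binding protein known from intestinal progenitors, was at 28.1 and 14.5 CPM (0.96, 0.74 to 1.17), and TOX3, a nuclear protein of the HMG-box family, at 31.3 and 17.2 CPM (0.86, 0.67 to 1.06).

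Proteins of the cytoskeleton are encoded by VIM, TMSB10 and TUBA1A, while the tubulin and actin list as a whole had 2 of 16 genes higher and a median of 0.01. VIM, the intermediate filament vimentin, was at 293 CPM in members and 152 CPM in comparison cells (0.95, 0.89 to 1.02), with medians of 3 and 1 UMIs per cell. TMSB10, a thymosin that binds actin monomers, was at 846 and 507 CPM (0.74, 0.70 to 0.77), with medians of 10 and 6 UMIs per cell. TUBA1A, an alpha tubulin, was at 151 and 77.3 CPM (0.97, 0.88 to 1.06). It has near-identical copies among the alpha tubulins, so its level is uncertain. VIM and TUBA1A were low in the parental libraries, at 1.98 and 2.15 CPM in LNCaP DMSO, against 211 and 108 CPM over all RES-A cells.

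RDH10, ARG2, BCHE and GSTA1, also among the 15 highest, encode enzymes. RDH10, a retinol dehydrogenase in the path to retinoic acid, was at 113 CPM in members and 64.9 CPM in comparison cells (0.80, 0.70 to 0.90). ARG2, the mitochondrial arginase, was at 64.4 and 38.7 CPM (0.73, 0.60 to 0.87), and BCHE, butyrylcholinesterase, at 20.4 and 10.8 CPM (0.92, 0.67 to 1.17). GSTA1, a glutathione transferase, was at 207 and 122 CPM (0.76, 0.69 to 0.84), which shares sequence with its neighbour GSTA2 and is uncertain as a level. The adhesion protein gene PCDH19, a protocadherin, was at 29.5 and 13.0 CPM (1.18, 0.97 to 1.40).

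Androgen-induced genes were close to level as a list. Of its 24 genes, 7 could be tested, with 1 higher (PMEPA1, a membrane protein induced by androgen and by TGF-beta, at 34.3 CPM in members and 22.97 CPM in comparison cells, 0.58, 0.40 to 0.76), 1 lower (STEAP2) and a median of 0.06. FKBP5, a chaperone and classical androgen target, was at 16.9 and 18.0 CPM. KLK3, which encodes prostate-specific antigen and was at 733 CPM in LNCaP DMSO, was at 0.0688 and 0.0441 CPM.

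Among the genes lower in members, STEAP1 and STEAP2 had some of the lowest ratios. They are neighbouring genes on chromosome 7 for six-transmembrane proteins of prostate epithelium. STEAP1 was at 66.6 CPM in members and 135 CPM in comparison cells (-1.02, -1.13 to -0.92), and STEAP2 at 59.3 and 115.7 CPM (-0.96, -1.08 to -0.85). Both were at over 200 CPM in the parental libraries, where STEAP1 was at 214 CPM in LNCaP DMSO and 220.3 CPM in LNCaP ENZ48, and both groups of RES-A lay below that level. Over the rising classes of IGFBP5 counts STEAP1 went from 135 CPM at 0 UMIs through 106, 99.3 and 77.4 CPM to 56.0 CPM at 10 or more. LINC01133, a long noncoding RNA, had the lowest ratio of the named genes, at 33.1 and 67.4 CPM (-1.03, -1.18 to -0.88), and PEG10, an imprinted gene derived from a retrotransposon, was at 10.8 and 21.6 CPM (-0.997, -1.27 to -0.73).

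Genes of the amino acid stress programme, which the factor ATF4 drives when amino acids run short, were lower in members as a list. Of 25 genes tested, 11 were lower by at least 0.5, none was higher, and 24 had an interval below 0, beside 20.2% of all genes tested with such an interval. The list's median was -0.43, beside -0.03 over all genes tested. TRIB3, a pseudokinase that feeds back on ATF4, was at 36.2 CPM in members and 71.7 CPM in comparison cells (-0.99, -1.13 to -0.84). PCK2, the mitochondrial enzyme that makes phosphoenolpyruvate, was at 106 and 179 CPM (-0.76, -0.85 to -0.67), and ASNS, asparagine synthetase, whose promoter is printed above, was at 96.6 and 158 CPM (-0.71, -0.80 to -0.62). ATF4 itself was at 351 and 432 CPM (-0.30, -0.35 to -0.25). The exception was AARS, alanyl-tRNA synthetase, at 47.9 and 46.3 CPM (0.05, -0.09 to 0.19). Promoters of 15 of the 25 genes were found, and 4 of these held TGATGNAA (26.7%), against 4.46% of all 27305 genes with a promoter listed.

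Genes of antioxidant defence went both ways. Of 13 genes of the metallothionein and glutathione list, 2 were higher (GSTA2 and GSTA1) and 4 were lower, with a median of -0.09. GCLC and GCLM, the subunits of the enzyme that starts glutathione synthesis, were at 23.2 and 44.5 CPM (-0.94, -1.12 to -0.76) and at 55.8 and 90.6 CPM (-0.70, -0.82 to -0.58). MT2A, a metal-binding metallothionein, was at 227 and 349.8 CPM (-0.62, -0.68 to -0.56). FTH1, the ferritin heavy chain and one of the most abundant RNAs of the library, was at 11376 and 16781 CPM (-0.56, -0.57 to -0.55), while the light chain FTL was at 1595 and 1332 CPM (0.26, 0.23 to 0.28). FTH1 and FTL were named after their values were seen.

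Genes of mitosis were lower in members. Of 48 genes of the G2/M list tested, 23 were lower by at least 0.5, none was higher and 43 had an interval below 0 (against 20.2% of all genes tested), with a median of -0.50. CDC20, an activator of the anaphase-promoting complex, was at 32.8 CPM in members and 66.7 CPM in comparison cells (-1.02, -1.17 to -0.87). The cyclins CCNB1 and CCNB2 were at 79.2 and 139 CPM (-0.81, -0.91 to -0.71) and at 28.6 and 50.7 CPM (-0.82, -0.99 to -0.66), and PTTG1 (securin) was at 124 and 220 CPM (-0.83, -0.91 to -0.75). CDK1, the kinase that the B cyclins activate, lay on the other side at 248 and 207 CPM (0.27, 0.20 to 0.33). Genes of S phase did not form such a group, with 0 of 33 past 0.5 in either direction and a median of -0.06. Of 40 G2/M genes with a promoter listed, 30 held TTTGAA (75%) and 28 held CCAAT (70%), against 18.2% and 39.7% of all genes.

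The phase calls, which score the same S and G2/M genes in cells thinned to 5000 UMIs, gave a like split. Of members, 70.8% were called G1 (exact binomial interval 68.0 to 73.4%), 14.05% S (12.1 to 16.2%) and 15.2% G2/M (13.2 to 17.4%). Of comparison cells, 62.7% were called G1 (60.4 to 65.0%), 13.1% S (11.5 to 14.7%) and 24.2% G2/M (22.2 to 26.3%). Seen from the other side, the IGFBP5 level was 339 CPM in cells called G1, 263 CPM in S and 213 CPM in G2/M. With comparison cells weighted to the members' depth and called phase, 51 genes in place of 112 were lower. Free RNA in the droplets can also add UMIs to such scores, and its part was not tested. The median of the G2/M list was -0.004 within cells called G1, -0.03 within S and -0.22 within G2/M, where the calls themselves rest on these genes. That of the amino acid stress list was -0.49, -0.44 and -0.31 in the same order. The naming rule required the 15 highest and 15 lowest genes to keep their side of 0 within G1. In S and in G2/M all of the 15 highest were above 0, and 13 and 15 of the 15 lowest were below 0. The cells called S and G2/M are among those whose summed counts chose these genes, so these counts are no independent check.

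**Figure D3:**
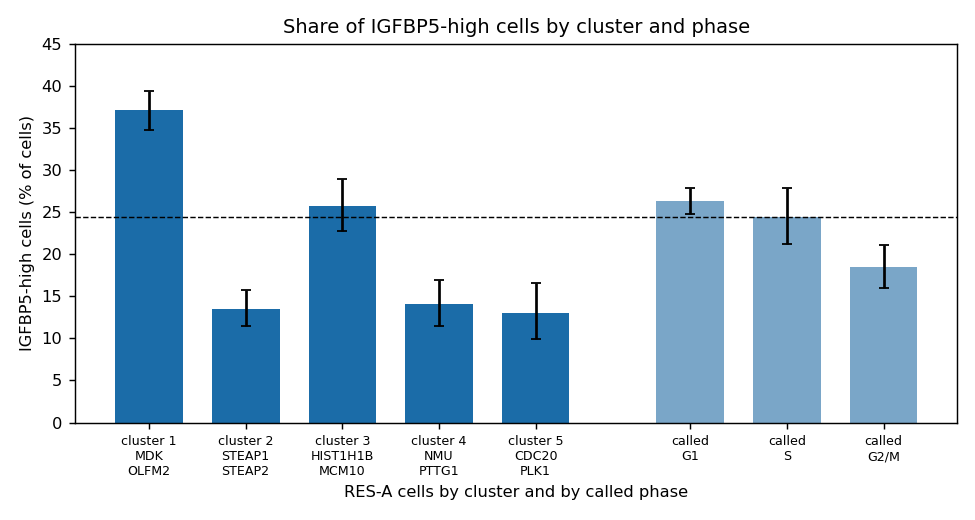
Share of IGFBP5-high cells (vertical axis, % of cells) in the 5 clusters of RES-A, each labelled with 2 of its leading genes, and in cells called G1, S and G2/M. Bars carry exact binomial 95% intervals and the dashed line is the share over all RES-A cells (24.5%). Cluster 1 has 37.1% and clusters 2, 4 and 5 have between 13.0 and 14.1%.

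Members were found in every cluster of RES-A cells when the cells were clustered without IGFBP5. The 5 clusters are given by number and leading genes. Cluster 1 (1727 cells, with MDK and OLFM2 among its leading genes) held 56.6% of the members and 23.1% of the comparison cells, and members were 37.1% of its cells (34.8 to 39.4%). Cluster 2 (1034 cells, led by STEAP1, STEAP2 and GCLC) was called G1 to the same degree, at 94.3% against 93.5% in cluster 1, but members were 13.5% of its cells (11.5 to 15.8%). In cluster 3, led by the histone gene HIST1H1B and replication genes, members were 25.8% of cells (22.8 to 29.0%). Clusters 4 (led by NMU and PTTG1) and 5 (led by CDC20 and PLK1) held 14.1% and 13.0% members. The IGFBP5 count thus varied within every cluster, since even in cluster 1 the share of cells with 0 UMIs was 23.7%. The clusters rest on the genes compared above, so they are a second view of the same cells.

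Many ratios were graded over IGFBP5 counts. In the classes of 0, 1 to 2, 3 to 4, 5 to 9 and 10 or more IGFBP5 UMIs, SOX4 was at 286, 400.04, 534, 541 and 597 CPM. VIM was at 152, 199.99, 257, 295 and 291 CPM in the same order, level from 5 UMIs on. Among the lower genes, TRIB3 went from 71.7 through 53.3, 49.4 and 40.2 to 32.2 CPM. Of the 67 higher genes, 31 had a higher value in each successive class, and of the 112 lower genes 66 had a lower value in each, beside 2.26% and 4.83% of all genes tested with such an order upwards or downwards. The classes of 0, 5 to 9 and 10 or more UMIs are those that chose the genes. Such an order was thus partly set by the choice, and the shares over all genes are no baseline for it. Only the classes of 1 to 2 and 3 to 4 UMIs carry the description, and their distance from the class of 0 is still partly set by the choice.

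**Figure D4:**
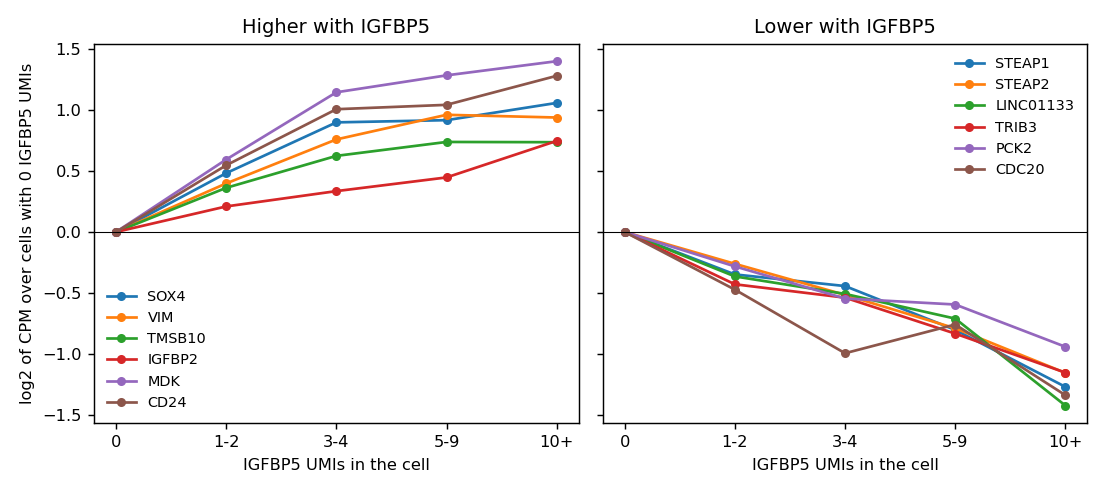
Log2 of CPM relative to RES-A cells with 0 IGFBP5 UMIs (vertical axis) over 5 classes of IGFBP5 UMIs per cell (horizontal axis) for 6 genes higher and 6 genes lower in members. Cells with 1 to 2 UMIs already lie apart from cells with 0. The cells with 0 helped choose most of these genes, so that gap is partly set by the choice. VIM and TMSB10 level off while STEAP1, LINC01133 and TRIB3 go on down.

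Across single cells the association was weak. Over the 4629 RES-A cells thinned to 5000 UMIs, the genes whose log-scaled values followed IGFBP5 most closely were SOX4 (Pearson r = 0.27), TMSB10 (0.24), RPL7 (0.20), TUBA1A (0.19) and IGFBP2 (0.19). The lowest were FTH1 (-0.24), MGST1 (-0.20), CHCHD10 (-0.18) and STEAP1 (-0.16). These cells share 1 library and their counts are sparse, and the coefficients are a description across cells without a test.

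In the IGF axis itself, IGFBP2 was the member that went with IGFBP5. IGFBP2, a binding protein of the same family that prefers IGF2, was at 316 CPM in members and 207 CPM in comparison cells (0.61, 0.55 to 0.67), with medians of 4 and 2 UMIs per cell. IGFBP3, the main carrier in blood, was low, at 6.95 and 12.1 CPM (-0.80, -1.14 to -0.46, below the 10 CPM of the tested genes). STC2, which blocks the IGFBP protease PAPPA, was at 24.3 and 36.7 CPM (-0.59, -0.78 to -0.41). The receptor genes IGF2R and INSR lay near 0, at 26.4 and 27.7 CPM (-0.07, -0.26 to 0.12) and at 8.81 and 8.68 CPM (0.02, -0.31 to 0.35). No other receptor of the list reached 5 CPM in either group. GRB10, an adaptor that restrains signalling of INSR and IGF1R, was at 107 and 96.1 CPM (0.16, 0.07 to 0.25). The other 16 of the 22 genes of the list were under 5 CPM in both groups.

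IGFBP5 is annotated at chr2:216672105-216695549 on the minus strand and IGFBP2 at chr2:216632828-216664436 on the plus strand. Of 27 further genes within 1 Mb, 5 passed the limit of 10 CPM, 7 held UMIs below it and 15 held none. Apart from IGFBP2, the 4 tested neighbours (PECR, XRCC5, SMARCAL1 and RPL37A) had log2 ratios between 0.04 and 0.21. By whole chromosomes (23, since arm boundaries were not at hand), the median log2 ratios lay between -0.05 and -0.01, so no chromosome stood apart.

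Among lineage factors, NR2F1, an orphan nuclear receptor known from dormant tumour cells, was at 69.8 CPM in members and 44.5 CPM in comparison cells (0.65, 0.52 to 0.78). Its relatives NR2F2 and NR2F6 were at 79.2 and 80.7 CPM and at 125 and 126 CPM. Of 9 genes of that list tested, 2 were higher (SOX4 and NR2F1) and none lower, with EHF, an ETS factor of epithelium, at 55.9 and 65.6 CPM (-0.23, -0.36 to -0.11). Of the 4 mesenchymal genes tested, VIM and LGALS1 (galectin-1, 52.7 and 34.1 CPM, 0.63, 0.48 to 0.78) were higher, while CALD1 (247 and 250.1 CPM) and TPM1 (70.2 and 70.3 CPM) were level, and the other 22 of the 26 were too low to test. Among arrest genes, SESN3, a stress-induced sestrin, was at 213 and 130.2 CPM (0.71, 0.64 to 0.78) and SESN2 at 16.2 and 23.5 CPM (-0.54, -0.77 to -0.31), with a list median of 0.03 over 17 genes. HES6, a regulator of neural and prostate cell fate, was at 81.9 and 55.0 CPM (0.57, 0.46 to 0.69), the 1 higher gene of 5 in the Notch and Wnt list. Of the neuroendocrine list only ENO2 could be tested, at 18.3 and 18.2 CPM.

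The UGT2B enzymes, some of which glucuronidate androgens for excretion, had a median of 0.39 over 5 genes. UGT2B28 was at 16.0 CPM in members and 10.4 CPM in comparison cells (0.62, 0.36 to 0.89) and UGT2B11 at 148 and 107 CPM (0.47, 0.38 to 0.55), while UGT2B17 was at 22.6 and 25.5 CPM (-0.17, -0.37 to 0.02). These genes are near copies of each other, so the split of reads among them is uncertain. The lipid synthesis list had 1 of 22 genes lower by at least 0.5 (FADS1, a fatty acid desaturase, 43.6 and 62.2 CPM, -0.51, -0.65 to -0.38), 11 intervals below 0 (against 20.2% of all genes tested) and a median of -0.18. The interferon and antigen presentation list had 0 of 9 genes past 0.5 and a median of -0.25, with HLA-B at 35.0 and 48.0 CPM (-0.46, -0.61 to -0.30). Mitochondrially encoded genes were level, from -0.07 (MT-ND5) to 0.08 (MT-ND6).

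**Figure D5:**
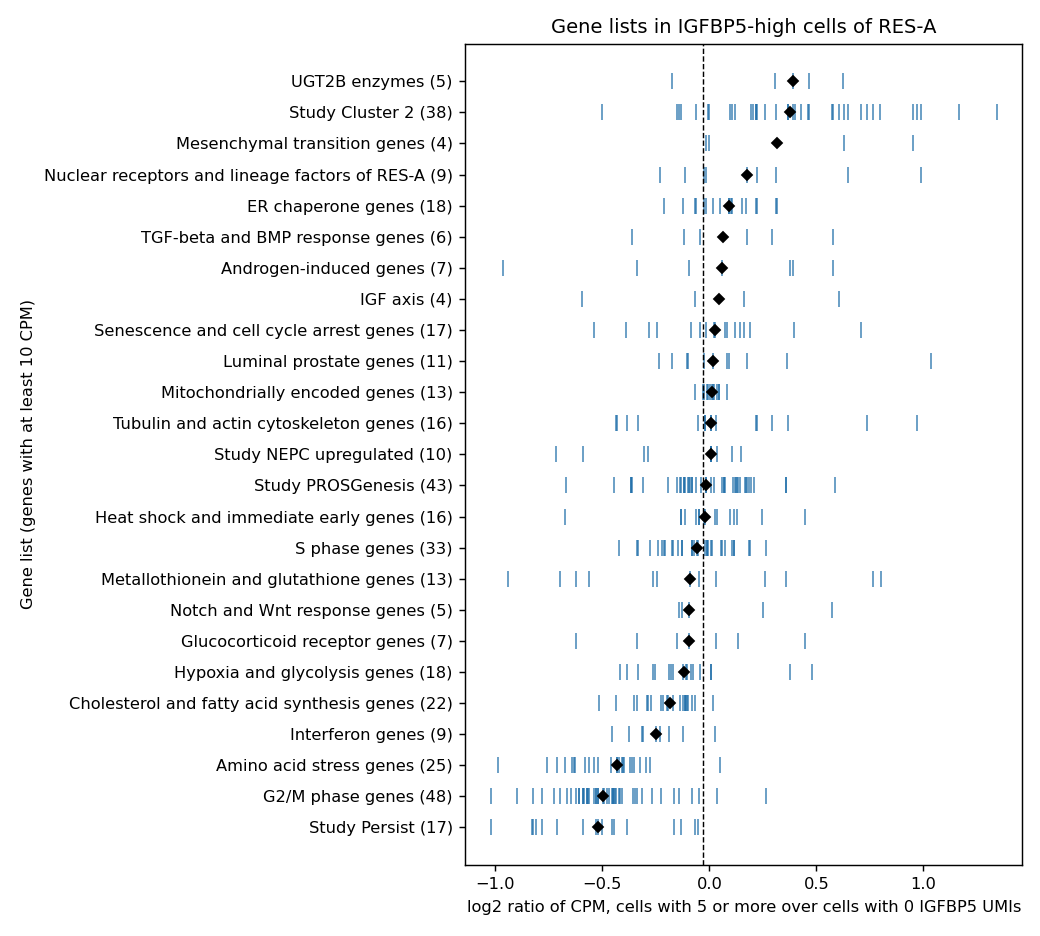
Log2 ratio of CPM between members and comparison cells (horizontal axis) for the genes of each list with at least 4 genes tested (number in brackets). Ticks are genes, diamonds are list medians and the dashed line is the median of all genes tested (-0.03). The G2/M and amino acid stress lists lie to the left, with medians of -0.50 and -0.43.

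The gene signatures of the study were also read in the members. Its list for Cluster 2, taken without IGFBP5, had 14 of 38 genes higher, 1 lower (ATP2B1, a calcium pump, 210.2 and 298 CPM, -0.50, -0.56 to -0.44) and a median of 0.38, and 8 of the 15 highest genes above belong to it. The study chose that list on these same libraries, so the count is not independent evidence of a direction. Its Persist list had 10 of 17 genes lower, none higher and a median of -0.52, and 9 of the 17 also belong to the G2/M list. Within cells called G1 the median of the Persist list was -0.06. The PROSGenesis list, with 43 genes tested, had 1 higher (RHOU, a small GTPase, 16.4 and 10.9 CPM, 0.59, 0.33 to 0.85), 1 lower (MME, a membrane endopeptidase, 47.5 and 75.6 CPM, -0.67, -0.80 to -0.54) and a median of -0.02.

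RES-B, the other resistant line, held 309 cells with 5 or more IGFBP5 UMIs and 3203 with 0, and the same comparison there gave 77 of 7594 genes higher (1.01%) and 119 lower (1.57%). Of the 15 highest genes of RES-A, 13 had a ratio above 0 in RES-B and 8 passed 0.5, PCDH19 with 1 UMI among them, and of the 15 lowest, 14 lay below 0 and 10 passed -0.5, PEG10 with 1 UMI (interval -6.75 to 1.22) among them. Of the 6987 genes tested in both lines, 61.7% had the same sign in both. VIM was at 94.0 CPM in RES-B cells with 5 or more IGFBP5 UMIs and 49.9 CPM in those with 0 (0.91, 0.76 to 1.07). STEAP1 was at 34.9 and 88.1 CPM in the same order (-1.33, -1.58 to -1.10). NR2F1 had a ratio of 1.57 there and IGFBP2 was at 175 and 97.8 CPM (0.84, 0.72 to 0.95). PCDH19 held 1 UMI in RES-B cells with 5 or more IGFBP5 UMIs and 0 in those with 0. The amino acid stress list had a median of -0.17 in RES-B and the G2/M list -0.32. Across those 6987 genes the log2 ratios had a Pearson r of 0.38, a description across genes, which are not independent replicates. Whether any ratio differed between the lines was not tested.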

How the data were processed

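Single-cell RNA was measured in 4 libraries (1 per group, groups from the sample titles). The authors sorted living cells, made droplet-based 3′ libraries and counted UMIs with Cell Ranger 3.0.2 on GRCh38, and the deposited UMI count matrices list 33538 genes and the barcodes called as cells. RES-A kept 4629 of 5156 barcodes and 58657527 UMIs, and the kept cells of the 4 libraries held 55696198 to 68158371 UMIs. Counts were summed over members and over comparison cells, scaled to CPM and compared as log2 ratios with exact conditional binomial intervals (scipy 1.17.1). The intervals were checked only on simulated Poisson counts, so the check does not cover variation between cells beyond counting error. Phases were scored and clusters made (scanpy 1.11.5, leidenalg 0.10.2, resolution 0.5, 2000 variable genes less IGFBP5, 30 components) on cells thinned to 5000 UMIs. Doublets were not called. Named genes were the 15 highest and 15 lowest with at least 20 CPM in a group, an interval leaving out 0 and the same sign under every alternative, plus IGF axis genes, neighbours of IGFBP5 and at most 2 at each end of a list, and genes named for a role in the text, and 2 of the 15 highest are not reported here. Members and lists were chosen with earlier results of these data known. TMM (edgeR 4.0.16) and DESeq2 1.42.0 size factors were alternative scalings. Coordinates are from GENCODE 44.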

Additional observations from a re-analysis of the deposited data

Results flagged for a closer look

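IGFBP3 lay on opposite sides of 0 in the resistant lines: its log2 ratio between cells with 5 or more and cells with 0 IGFBP5 UMIs was -0.80 (-1.14 to -0.46) in RES-A and 1.33 (1.11 to 1.54) in RES-B, at 53.1 against 21.2 CPM there. ID1, an inhibitor of basic helix-loop-helix factors that BMP signals induce, lay at -0.36 (RES-A) and 0.97 (RES-B). These differences between the lines were not tested.

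IGFBP5 was also read in the 527 RES-A barcodes outside the cell limits, which no comparison used. They held 472 IGFBP5 UMIs, or 348 CPM (317 to 381), beside 300.1 CPM (296 to 305) in the kept RES-A cells and 0.0180 CPM in the kept LNCaP DMSO cells.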

How the results depend on the processing

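No paired analysis was possible because each group is 1 library. The share of IGFBP5-high cells was 22.5% with no cell filter and within counting error of 24.5% under the study's limits, at mid depth and without the 5% of cells with most UMIs. The count of higher genes went from 67 to 135 with cells thinned to 5000 UMIs, 101 for members with 10 or more UMIs, 539 at a minimum of 1 CPM and 16 at 50 CPM. That of lower genes went from 112 to 193 when thinned, 51 with comparison cells weighted over depth and phase, 433 at 1 CPM and 38 at 50 CPM. The number of genes tested, 7354 in the main setting, changes with the CPM limit, so these counts cannot be read as shares. Ratios at 1 CPM and after thinning rest on fewer UMIs and carry more counting error, whose part in the counts was not tested. The G2/M list's median was 0.015 among genes passing the filter within cells called G1 and -0.18 with that weighting. CDC25B and AURKA, both mitotic, turned to 0.42 and 0.21 within G1. The Persist list's median was -0.065 within G1, -0.19 with the weighting, -0.63 when thinned and -0.66 for 10 or more UMIs. The mesenchymal list, of 4 genes in the main setting, had medians of 0.51 when thinned and 0.63 with mitochondrial genes out of the totals. It had medians of 0.58 at 1 CPM and -0.0016 at 50 CPM. The genes that pass the filter can differ between settings, so these medians do not rest on the same 4 genes. At 50 CPM the median was the ratio of TPM1, with LGALS1 under the limit. Mitochondrial genes summed to 106650 CPM in members and 106053 CPM in comparison cells. The amino acid stress list's median was -0.55 for 10 or more UMIs. The S share of comparison cells was 11.2% by unthinned calls. The highest share of members in a cluster was 27.8% at resolution 0.3 and 41.1% at 1.0. Of 1582 recomputed ratios of 122 named genes, 1446 stayed within their counting interval. TMM and DESeq2 factors moved the median ratio by 0.0095 and 0.0032. With 1 library, culture to culture variation is unknown.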
